A study of Bos taurus with 6 samples.

Results

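The regions described here were the centromere-proximal ends of the 29 autosomes of cattle, the first 5 Mb of each sequence in bins of 100 kb counted from position 1. A bin was a member if it had at least 100 reads in each of the 6 libraries, which held for 1449 of 1450 candidate bins, out of 27035 bins with that many reads in the whole series. The bin left out lay at 2500001 to 2600000 on chromosome 19 and had 92 reads in its lowest library, against 104, 108 and 110 reads in the 3 members nearest to the minimum. The libraries came from whole-genome bisulfite sequencing (WGBS) of REPC, the rumen epithelial primary cells of 1 Holstein bull calf that was 2 weeks old and had received only milk replacer. These cells line the first stomach chamber and were grown in culture. In total, 3 libraries of untreated control cells and 3 libraries of cells kept for 24 h in 5 mM butyrate were compared, so that replicates were not separate animals and p-values measure only the spread between these libraries. Butyrate arises from fermentation by rumen microbes and inhibits histone deacetylases.

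Cattle autosomes are acrocentric, that is, the centromere lies close to one end, and that end is by convention the start of the sequence. The centromere itself consists of long arrays of tandemly repeated satellite DNA, which are rich in CpGs, are usually methylated in somatic cells and are mostly absent from genome assemblies. The sequence next to a centromere (pericentromeric sequence) often carries copies of such repeats. Apart from these, most CpGs of a mammalian genome are methylated, CpG-dense islands at promoters usually are not, and long domains of CpG-poor, gene-poor sequence can lose part of their methylation as cells divide in culture. The files held no marker of the centromere, so its place rests on the karyotype alone. Genes and sequences of these bins were not analysed here.

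For each cytosine of a CpG, with both strands counted separately, the files gave methylated and unmethylated reads, and the level of a region was the percentage of its reads that were methylated. A sequencing read was counted at each CpG cytosine that it covered, so numbers of reads throughout are sums of such counts. The member bins held 1163586 to 1487275 reads per library, with a median of 501 reads per bin and library. The 95% Wilson interval of a single library was at most 0.0871 percentage points to either side for the whole region and 4.04 points for the median bin. It covers counting error only. It also takes all counts as independent, which counts from the same sequencing read are not, so it is too narrow. The members were compared with the interior of the same autosomes, 19269 bins over 10 Mb from both ends.

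The ends next to the centromere were less methylated than the interior, most of all in their first 500 kb. The mean level of a member bin in the controls was 61.24%, 61.21% and 61.03%, and in the butyrate libraries 61.65%, 61.66% and 61.63% (replicates 1 to 3 in this order, here and below). In interior bins it was 65.75%, 65.61% and 65.58% in the controls and 66.25%, 66.10% and 66.18% in the butyrate libraries. In each library the end was thus lower than the interior, with differences between -4.60 and -4.40 points and a mean of -4.51 points ± 0.0764 (SD, n = 6; two-sided exact permutation test by sign flips, p = 0.03125, the smallest that 6 libraries allow). With all reads of the region pooled, so that CpG-rich and deeply covered bins weigh more, the end was lower by less. The pooled levels were 64.4% ± 0.303 in the end and 65.4% ± 0.354 (SD, n = 6) in the interior, and the difference within a library was -0.947 points ± 0.118 (SD, n = 6; two-sided exact permutation p = 0.03125, also after Benjamini-Hochberg adjustment over 5 such comparisons). This pooled difference turned to 1.13 points on cytosines that had 5 or more reads in a library, and to 0.712 points with cytosines covered in all 6 libraries. The cause of this turn was not tested. With the first 10 Mb in place of 5 it was -0.0267 points (two-sided exact permutation p = 0.469) and was no longer called.

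The level rose with distance from the start. In the first Mb the mean level of bins was 56.9% ± 0.351 (SD, n = 6), a difference of -9.01 points from the interior. It was 61.1% ± 0.433 from 1 to 2 Mb, 60.9% ± 0.267 from 2 to 3 Mb, 62.6% ± 0.154 from 3 to 4 Mb and 65.5% ± 0.403 (SD, n = 6) from 4 to 5 Mb, which differed from the interior by -0.415 points. Steps of 100 kb showed that the low stretch was short. The mean of the 29 bins in each of the first 5 steps lay between 52.4% and 54.6%, and that of the sixth step was 58.4%. From 5 to 10 Mb the means per Mb ran from 63.2% to 67.7%, on both sides of the interior. Pooled over reads, the profile was flatter against the interior. The level was 63.0% in the first Mb, 65.9% from 3 to 4 Mb and 67.3% from 4 to 5 Mb, against 65.4% in the interior. By this measure the first Mb differed from the fifth by -4.298 points ± 0.183 (SD, n = 6; two-sided exact permutation p = 0.03125, unchanged after adjustment over 5 comparisons). The first Mb was, however, higher by 5.65 points on cytosines with at least 5 reads and by 3.27 points on cytosines covered in all 6 libraries.

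**Figure D1:**
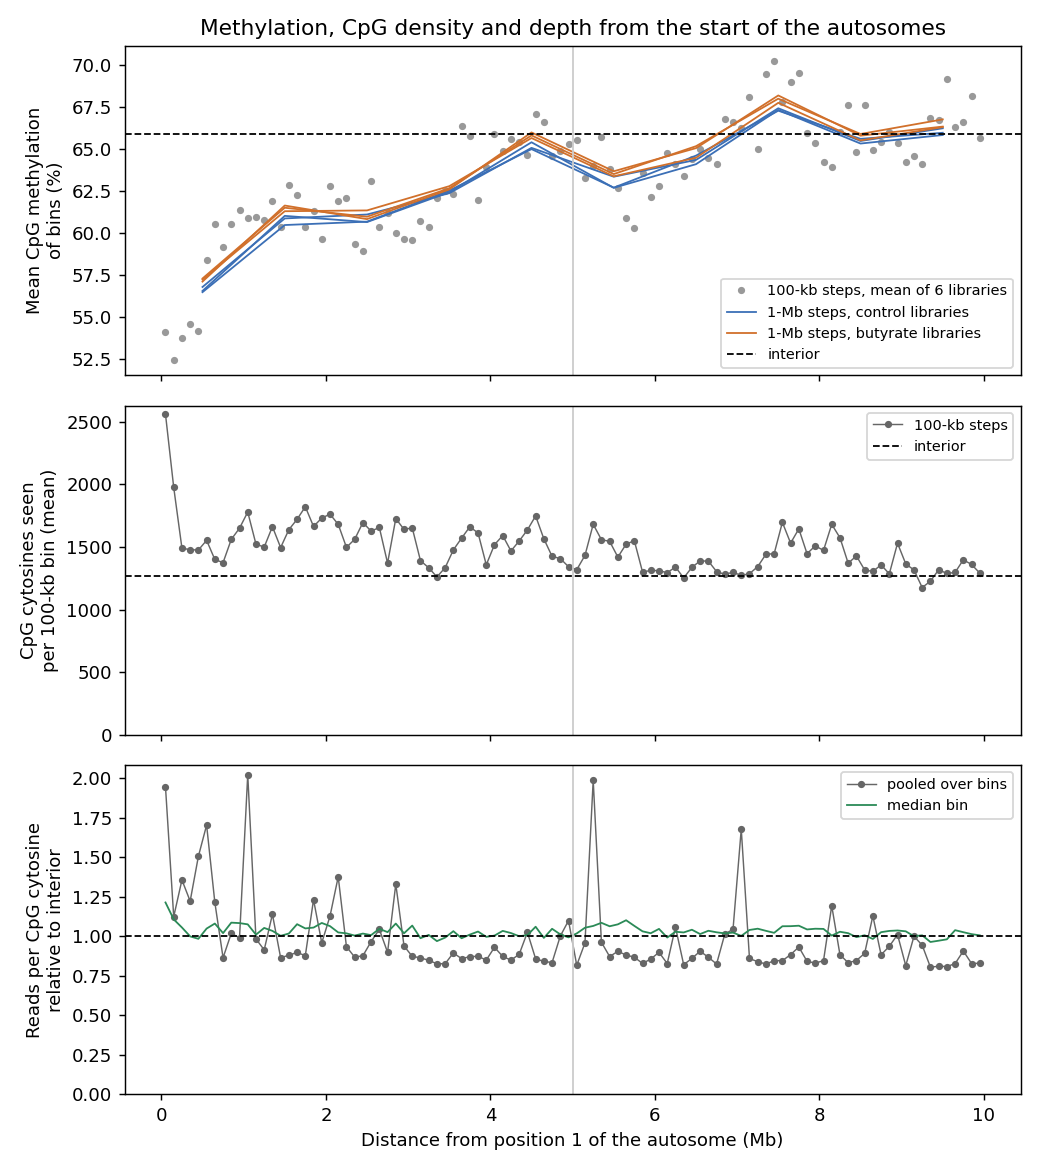
Mean CpG methylation of 100-kb bins in percent (top), CpG cytosines seen in any library per bin (middle) and reads per CpG cytosine relative to the interior (bottom), against the distance from position 1 of the 29 autosomes in Mb. Points are means over the autosomes in 100-kb steps, coloured lines are single libraries in 1-Mb steps, dashed lines mark the interior and the grey line marks 5 Mb; the level starts between 52.4% and 54.6% and comes close to the interior at 4 to 5 Mb. Density and the depth of the median bin (green) are highest in the first step, at 2562 cytosines and 1.21, whereas pooled depth (grey) is as high in single later steps, such as 2.02 at 1.0 to 1.1 Mb.

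Single bins varied widely around these means. With the 6 libraries summed, the middle 90% of member bins lay between 41.1% and 81.8%, with a median of 61.2%, whereas that of interior bins lay between 47.5% and 84.8%, with a median of 65.8%. Levels under 50% were found in 235 member bins, or 16.2%, against 7.37% of interior bins. Levels over 80% were found in 97 member bins, or 6.69%, against 11.99% of interior bins. The share of bins under 50% was 31.4% in the first Mb and 6.90% in the fifth.

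Low bins were often neighbours. Runs of at least 3 consecutive bins under 50% numbered 26 and held 127 member bins, or 8.76% of them, whereas such runs held 1.15% of interior bins. The longest runs, picked like the high run below after their values were seen, lay at 100001 to 1100000 on chromosome 15 with a level of 39.2% ± 0.983, at 1300001 to 2300000 on chromosome 19 with 42.1% ± 1.53, and at 100001 to 1000000 on chromosome 18 with 40.5% ± 1.06 (SD, n = 6). Each of them covered 900 or 1000 kb. Longer low runs occurred in the interior, the longest of 2100 kb on chromosome 29, so that long runs were not particular to the ends. Highly methylated runs were shorter here, with at most 5 consecutive bins over 80%. One such run, at 2200001 to 2700000 on chromosome 12, had a level of 88.1% ± 0.446 (SD, n = 6).

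**Figure D2:**
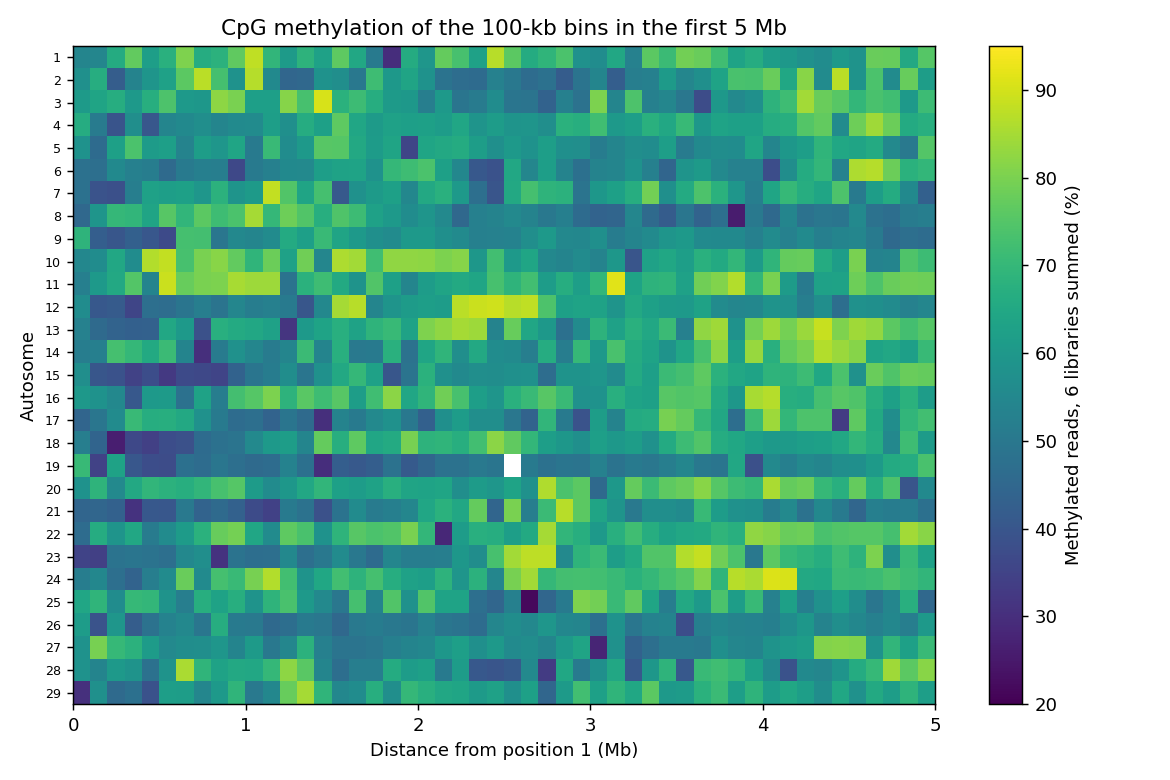
Level of each member bin in percent of methylated reads, with the 6 libraries summed (colour), by autosome (rows) and distance from position 1 in Mb (columns); the white cell is the bin under 100 reads. Dark runs of low bins include those that begin at 100001 on chromosomes 15 and 18 and at 1300001 on chromosome 19. Bins under 50% make up 31.4% of the first Mb and 16.6% both from 1 to 2 Mb and from 2 to 3 Mb. Yellow runs of high bins, as on chromosomes 10 and 12, are short.

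The direction of the difference depended on CpG density. Density was counted in windows of 500 bp, as all CpG cytosines with a read in at least 1 library, so that deeper sequence can count as denser. In windows with 1 to 5 cytosines the level was 57.6% ± 0.101 in the end and 67.2% ± 0.201 (SD, n = 6) in the interior, a difference of -9.62 points ± 0.141 within a library. In windows with 6 to 15 cytosines the difference was -5.28 points ± 0.117, and with 16 to 30 cytosines it was -1.78 points ± 0.117 (SD, n = 6). In the densest windows, with over 30 cytosines, the end was instead more methylated than the interior, with 60.7% ± 0.465 against 52.4% ± 0.528, a difference of 8.28 points ± 0.234 (SD, n = 6). Each of the 4 differences had the same sign in 6 of 6 libraries and the smallest possible p of 0.03125 (two-sided exact permutation test, unchanged after adjustment over the 4 classes). Unlike the pooled level, all 4 kept their direction on cytosines with at least 5 reads, on those covered in all 6 libraries and without the most deeply covered cytosines, although the sizes moved, for example from 8.28 to 3.27 points in the densest class and from -5.28 to -11.6 points in the class of 6 to 15 with at least 5 reads per cytosine. Over the 29 autosomes, windows with 1 to 5 cytosines were lower in the end than in the interior of the same autosome on 23, and windows with over 30 cytosines were higher on 24. When the classes were weighted by their share of the interior's reads, the opposite differences partly cancelled. The end then differed by -0.870 points ± 0.105 (SD, n = 6; two-sided exact permutation p = 0.03125). This difference turned to 1.77 points with at least 5 reads per cytosine and to 1.12 points with cytosines covered in all 6 libraries. In these 2 settings the weights were taken from the reads that the setting kept, so they were not those of the main result. By the unweighted mean of bins, the 4 classes differed by -8.29, -6.65, -3.08 and 12.2 points, from the sparsest to the densest. Weighted by the interior's reads, these gave -0.204 points at matched density. The densest class held 31.4% of the interior's reads and 15.9% of its cytosines. The -4.51 points without matching give each bin equal weight, so the 2 values differ in weighting as well as in matching.

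Both differences were largest in the first Mb. There, windows with 1 to 5 cytosines differed from the interior of the same class by -17.8 points ± 0.326 and windows with over 30 cytosines by 13.6 points ± 0.126 (SD, n = 6). From 4 to 5 Mb these differences were -4.28 and 5.97 points, and from 9 to 10 Mb, beyond the member bins, they were -1.78 and -1.57 points.

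**Figure D3:**
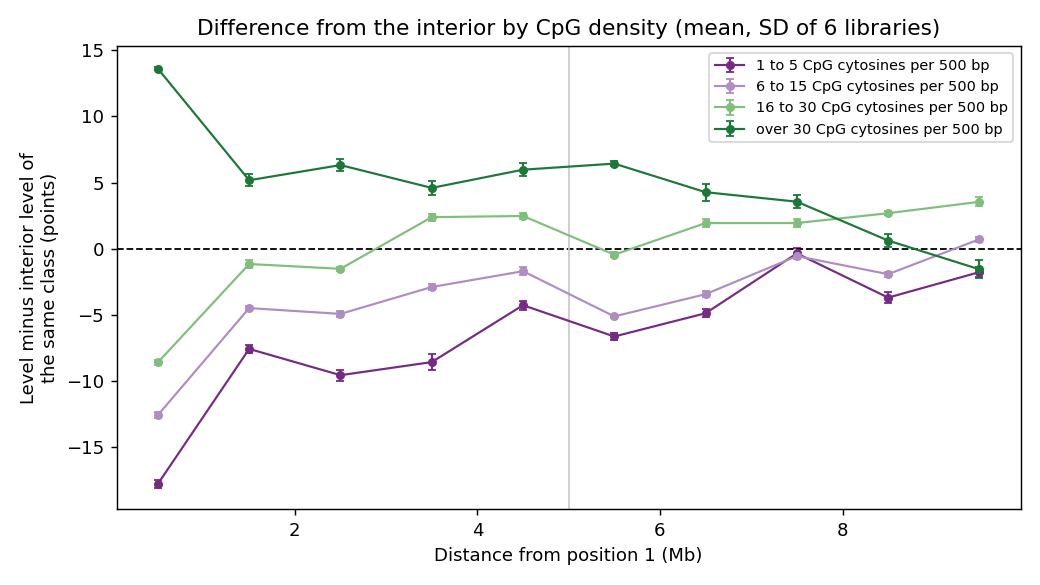
Methylation level minus the interior level of the same CpG density class, in percentage points, per Mb of distance from position 1; points are means and bars SDs over the 6 libraries, and the grey line marks 5 Mb. In the first Mb the 3 classes with up to 30 CpG cytosines per 500 bp lie below 0 and the densest class lies 13.6 points above it.

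The mean level of bins was 54.1% in the first 100 kb of the autosomes and lower, at 52.4%, in the second. Of the 100-kb steps, only the first was split by density class, and there the differences were larger than over the whole first Mb. In these 29 bins the level was 37.1% ± 1.32 in windows with 1 to 5 cytosines and 45.3% ± 0.862 (SD, n = 6) in windows with 6 to 15, which differed from the interior by -30.2 and -27.4 points. Without the most deeply covered cytosines these differences were -30.4 and -26.7 points and thus about as large. Counted jointly as windows with 1 to 15 cytosines, this CpG-poor sequence was below the interior of the same autosome on 29 of 29 autosomes. By autosome, its level in the first 100 kb ranged from 28.1% on chromosome 26 to 66.9% on chromosome 27, with a median of 42.9%, whereas the interiors ranged from 64.8% to 73.3%, with a median of 71.3%. In the first Mb the CpG-poor level was below the interior on 26 of 29 autosomes, with a median of 56.6%.

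In contrast, the densest windows of the first 100 kb had a level of 67.1% ± 0.571 (SD, n = 6), 14.7 points above the interior. This level is pooled over reads and was not computed without single autosomes. The first bins of chromosomes 19 and 9 held the most reads, at 21.9 and 12.2 per cytosine over the 6 libraries. Over all their windows these 2 bins had 70.5% and 68.7%, whereas the median first bin had 54.7%. Dense windows were also frequent in the first 100 kb, at 306 windows with over 30 cytosines per Mb, against 39.3 per Mb in the interior and 88.0 per Mb over the whole first 5 Mb. They were unevenly spread, since 57% of those in the first 100 kb lay on 5 autosomes and 3 autosomes had none. The richest, with 121 each, were chromosomes 4 and 19. The first bins held from 341 to 7022 CpG cytosines, with a median of 1660 against 1125 in the other members, and on 17 of 29 autosomes the first bin held more than the median of the rest of its end.

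The dense windows differed from those of the interior in kind as well as in number. Among windows with over 30 cytosines and at least 50 reads over the 6 libraries, 20.2% of 12715 in the end had a level under 20%, as unmethylated CpG islands have, against 41.0% of 75367 in the interior. Windows over 80% made up 40.6% and 30.8%. Counted per Mb, the end held 17.7 windows under 20% and the interior 16.02, while the other dense windows numbered 70.1 per Mb in the end and 23.1 per Mb in the interior. The end thus had a similar number of low dense windows and more dense windows that were not low. Within single libraries, over windows with at least 8 reads, the share under 20% was 20.8% ± 0.339 in the end and 41.1% ± 0.135 (SD, n = 6) in the interior, and the difference of -20.3 points had the same sign in 6 of 6 libraries (two-sided exact permutation p = 0.03125, unchanged after adjustment over 3 comparisons of dense windows). The greater number of dense windows and the smaller share under 20% were not particular to the centromere-proximal end. The last 5 Mb of the autosomes lay further from the interior in both, with 351 dense windows per Mb, of which 11.3% were under 20% and 52.8% over 80%. In number of low dense windows, however, the last 5 Mb differed from both, with 39.5 per Mb. In the first 100 kb, 14 of 885 dense windows (1.58%) were under 20%, and 841 (95.03%) were between 20% and 80%.

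Deep coverage went along with part of the dense windows. Windows with at least 10 reads per cytosine over the 6 libraries made up 4.58% of the dense windows in the end and held 38.2% of their reads, against 7.65% and 52.3% in the interior. In these deep windows the end exceeded the interior by 3.09 points ± 0.161, and in the remaining dense windows it did so by 18.2 points ± 0.291 (SD, n = 6; two-sided exact permutation p = 0.03125 for each), with levels of 55.2% and 36.9%. The difference of dense windows was therefore larger without the deep ones. Among the dense windows of the first 100 kb, 21.8% were deep and held 69.7% of the reads.

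The 29 autosomes differed in how their end compared with their interior. Pooled over reads, the end was lower on 17 autosomes, in all 6 libraries on 15 of them, and higher on 12, in all 6 libraries on 11. By the unweighted mean of bins it was lower on 22 and higher on 7. Pooled over reads, the lowest end was that of chromosome 26, where the controls had 54.3%, 53.1% and 53.6% and the butyrate libraries had 53.9%, 53.6% and 54.4%. None of these 6 libraries came near the 64.3% ± 0.483 (SD, n = 6) of its interior, and the difference was -10.4 points ± 0.455. Next were chromosome 6 with -8.66 points ± 1.05 and chromosome 15 with -8.61 points ± 0.248 (SD, n = 6). By the unweighted mean of bins the largest differences of this sign were instead -14.4 points on chromosome 19, -12.8 points on chromosome 9 and -12.4 points on chromosome 26. At the other extreme, the end of chromosome 24 had 70.4% ± 0.285 against 66.5% ± 0.352 in its interior, a difference of 3.83 points ± 0.247. It was followed by chromosome 11 with 2.80 points ± 0.541 and chromosome 10 with 2.48 points ± 0.450 (SD, n = 6). The 15 autosomes lower and the 11 higher in all 6 libraries reached the smallest p alike, whatever the size, so this p does not set the extremes apart. These 6 differences, picked by their size in the same libraries, were among them (two-sided exact permutation p = 0.03125, 0.0349 after adjustment over 29 autosomes). They kept their sign on cytosines with at least 5 reads in a library, but those of chromosomes 24 and 11, at 1.09 and 3.98 points, no longer reached the smallest p (two-sided exact permutation p = 0.0938 and 0.0625), and the order changed, with -17.5 points on chromosome 6, -4.21 points on chromosome 26 and 7.96 points on chromosome 10.

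Autosomes with a CpG-poor end tended to be those with a low end. The ends of chromosomes 26, 6 and 15 held 685, 761 and 792 CpG cytosines per bin, against 1499, 1045 and 1275 in their interiors, whereas the ends of chromosomes 24, 11 and 10 held 2809, 2333 and 1402, against 1335, 1263 and 1261. Across the 29 autosomes, which were read in the same libraries and are not independent replicates, Pearson's r between the log2 ratio of density and the unweighted difference in level was 0.607, and 0.418 for the pooled difference. Across the member bins, r between the log2 number of CpG cytosines and the level was 0.360, and across interior bins it was -0.0375. Chromosome 19 showed how far the 2 ways of averaging can part. Its end had 788 cytosines per bin against 2273 in the interior, and 28 of its 49 bins were under 50%. The mean of its bins lay 14.4 points below the interior, and yet its pooled level lay 0.486 points ± 0.241 (SD, n = 6) above it, with the first bin alone holding 7022 cytosines at 21.9 reads each over the 6 libraries.

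**Figure D4:**
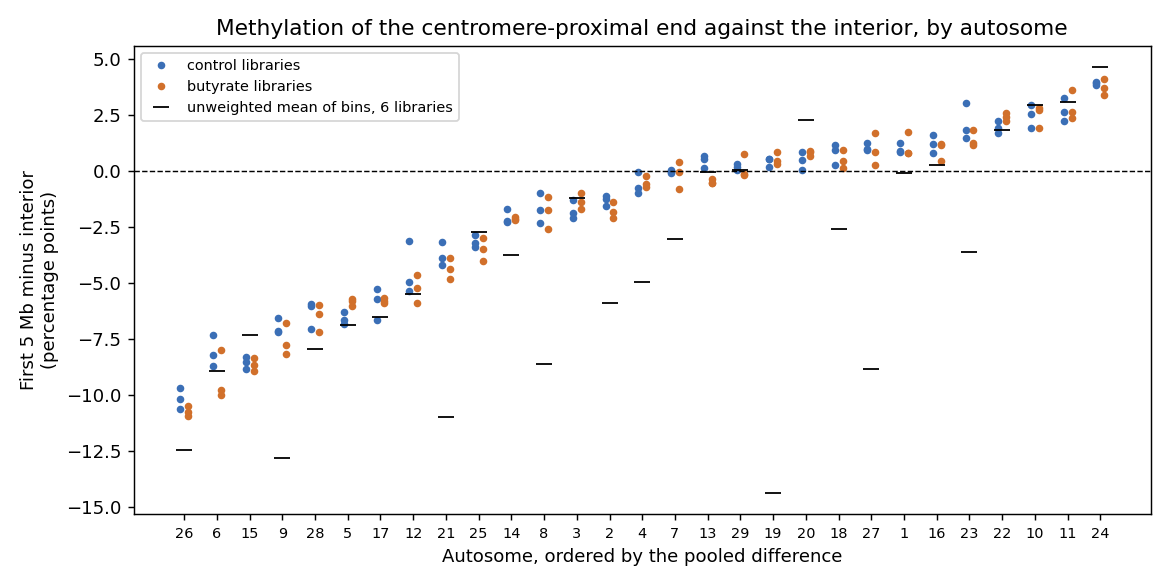
Level of the first 5 Mb minus that of the interior in percentage points, for each of the 29 autosomes in the order of the pooled difference. Dots are single libraries pooled over reads (control and butyrate) and black bars the unweighted mean of bins over the 6 libraries; by the dots chromosomes 26, 6 and 15 are lowest and chromosomes 10, 11 and 24 highest, and on chromosome 19 the bar lies far below the dots.

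The lowest and the highest bins were of different kinds. The lowest member bin lay at 2600001 to 2700000 on chromosome 25, with 22.5%, 23.2% and 21.1% in the controls and 21.5%, 21.98% and 20.4% in the butyrate libraries, from 1438 to 2160 reads. It was CpG-rich, with 59.9% of its cytosines in windows of over 30, where the level was 6.42%, against 64.1% in its windows with 1 to 5 cytosines. It contained 38 dense windows under 20%. The bin at 3800001 to 3900000 on chromosome 8, with 26.0% ± 3.77 (SD, n = 6), also had nearly unmethylated dense windows, at 2.63%. It held fewer cytosines in total, 1142 against 3428 in the bin on chromosome 25, and 38.4% of them lay in windows of over 30. It had 5 dense windows under 20%, 1 of which held 20.6% of its reads, and a level of 45.0% in its windows with 1 to 5 cytosines. The third, at 200001 to 300000 on chromosome 18, with 26.1% ± 1.86 (SD, n = 6), was different again: only 3.47% of its cytosines lay in dense windows, none of these windows was under 20%, and its windows with 1 to 5 cytosines had a level of 19.96%. It belongs to the long low run of that chromosome.

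The highest bins were methylated throughout. The bin at 3100001 to 3200000 on chromosome 11 had 91.8% ± 1.79, and the neighbouring bins at 4000001 to 4100000 and 4100001 to 4200000 on chromosome 24 had 90.9% ± 1.01 and 90.4% ± 1.92 (SD, n = 6). In these 3 bins even the windows with over 30 cytosines had levels of 92.9%, 91.3% and 90.1%. The spread between libraries was below 2 points in each.

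Depth was raised at the very start. Reads per CpG cytosine in the end were 1.05 times those of the interior (log2 ratio 0.07 ± 0.00952, SD, n = 6; two-sided exact permutation p = 0.03125, unchanged after adjustment over 5 comparisons), and without the first 100 kb the log2 ratio was 0.03. Only cytosines with a read in some library were counted. Reads per 100-kb bin, which also rise with the number of CpG cytosines in a bin, had a log2 ratio of 0.40. The ratio of reads per CpG cytosine was 1.33 ± 0.0154 in the first Mb and 0.916 ± 0.00486 (SD, n = 6) from 4 to 5 Mb, whereas for the median bin it was 1.07 and 1.02. In the first 100 kb the pooled ratio was 1.94 ± 0.0295 (SD, n = 6), and that of the median bin was 1.21. Pooled ratios as high were also found in single later steps, such as 2.02 from 1.0 to 1.1 Mb, the step of the deepest member bin, and 1.99 from 5.2 to 5.3 Mb, whereas the ratio of the median bin was highest in the first step. The first 10 kb had 12.1 reads per cytosine over the 6 libraries, against 2.98 from 90 to 100 kb. The first bin was deeper than the median of the rest of its end on 25 of 29 autosomes and lower in level on 23 of 29. Its reads per cytosine over the 6 libraries ranged from 2.19 to 21.9, with a median of 3.05 against 2.59 in the other members. The part of this depth in the levels of the first 100 kb was not tested beyond the removal of deep cytosines described above.

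A few bins carried very many reads. The bin at 1000001 to 1100000 on chromosome 3 had 27780 to 36189 reads per library, 13.5 times the interior's reads per cytosine, and a level of 62.3% ± 0.603 (SD, n = 6). The bin at 1800001 to 1900000 on chromosome 28 had 8260 to 10908 reads and 66.4% ± 1.32 (SD, n = 6), and a single window of 500 bp, at 1894501 to 1895000, held 50.9% of them. The bin at 2100001 to 2200000 on chromosome 21 had 11582 to 15227 reads and 68.0% ± 0.476 (SD, n = 6). In these 3 bins 91.1% to 92.5% of reads lay in windows with over 30 cytosines. Bins with at least 10 reads per cytosine over the 6 libraries made up 1.59% of the members and 1.30% of interior bins, and the most deeply covered cytosines of the series held 7.02% of the members' reads and 8.24% of the interior's. Over the whole end, very deep sequence was thus about as common as in the interior. Within the end it was uneven. The most deeply covered cytosines held 9.41% of reads in the first Mb and 11.0% from 1 to 2 Mb, but 0.254% from 3 to 4 Mb.

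At the other end of the chromosome levels were higher. In the 1442 bins of the last 5 Mb before the last CpG seen on each autosome, the pooled level was 70.2% ± 0.301 (SD, n = 6), and the centromere-proximal end differed from it by -5.81 points ± 0.0781 (SD, n = 6; two-sided exact permutation p = 0.03125, unchanged after adjustment over 5 comparisons). By the mean of bins this difference was -8.10 points. The distal bins were denser, with 3417 CpG cytosines per bin against 1584. Within density classes, however, the centromere-proximal end was lower in all 4, with differences of -9.003, -4.49, -4.10 and -7.33 points from the sparsest to the densest class (two-sided exact permutation p = 0.03125 for each, unchanged after adjustment over 4 classes). In the densest class both ends were above the interior, with 68.0% ± 0.315 (SD, n = 6) in the distal end.

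Butyrate-treated libraries were slightly more methylated in the end, as they were in the interior. The members had pooled levels of 64.26%, 64.296% and 63.95% in the controls, and of 64.78%, 64.59% and 64.63% in the butyrate libraries. All 3 butyrate libraries lay above all 3 controls. The means were 64.2% ± 0.190 and 64.7% ± 0.0979 (SD, n = 3), a difference of 0.496 points that was larger than the spread between replicates (two-sided exact permutation p = 0.1, the smallest that 3 against 3 allow, and 0.2 after adjustment over 2 comparisons). Butyrate replicates 1 and 3 were sequenced on lane 5 and the other 4 libraries on lane 6. Within lane 6, butyrate replicate 2 was 0.421 points above the mean of the controls. Lane 5 had no control, so that no value could be had there. In the interior the difference was 0.624 points. The difference between end and interior changed by -0.128 points with butyrate, with control and butyrate values overlapping (two-sided exact permutation p = 0.3), so that a treatment effect particular to the end was not detectable with 3 libraries per group.

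The butyrate libraries had the higher mean in each step of 1 Mb, and by density the groups separated in only some of the classes. Single steps of 100 kb went either way, such as -0.393 points from 3.8 to 3.9 Mb and 1.52 points from 3.1 to 3.2 Mb. By Mb, the difference was 0.558 points in the first, 0.698 points from 1 to 2 Mb, 0.412 points from 2 to 3 Mb, 0.338 points from 3 to 4 Mb and 0.411 points from 4 to 5 Mb. The groups overlapped only in the last of these (two-sided exact permutation p = 0.2, against 0.1 in the others, or 0.125 after adjustment over 5 distances). These are pooled levels. By the unweighted mean of bins the groups overlapped from 2 to 3 Mb (0.238 points, two-sided exact permutation p = 0.3) and not from 4 to 5 Mb (0.664 points, two-sided exact permutation p = 0.1). By density, windows with 1 to 5 cytosines averaged 57.6% ± 0.0183 in control libraries and 57.6% ± 0.153 (SD, n = 3) after butyrate, which is 0.0483 points apart with overlapping groups (two-sided exact permutation p = 1). With 6 to 15 cytosines the difference was 0.347 points without overlap (two-sided exact permutation p = 0.1, or 0.2 after adjustment over 4 classes), and with 16 to 30 it was 0.325 points with overlapping groups (two-sided exact permutation p = 0.2, or 0.267 adjusted). Windows with over 30 cytosines had 60.3% ± 0.302 and 61.1% ± 0.0702 (SD, n = 3), a difference of 0.770 points without overlap (two-sided exact permutation p = 0.1, or 0.2 after adjustment over 4 classes). Over the 29 autosomes the end was higher in butyrate on 25, without overlap of the groups on 7, and lower on 4, with overlap on each. The interior, which holds many more reads, was higher in butyrate on 29 of 29 autosomes, without overlap on 27. The largest rise was 1.45 points on chromosome 5 (two-sided exact permutation p = 0.1, 0.414 after adjustment over 29 autosomes).

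**Figure D5:**
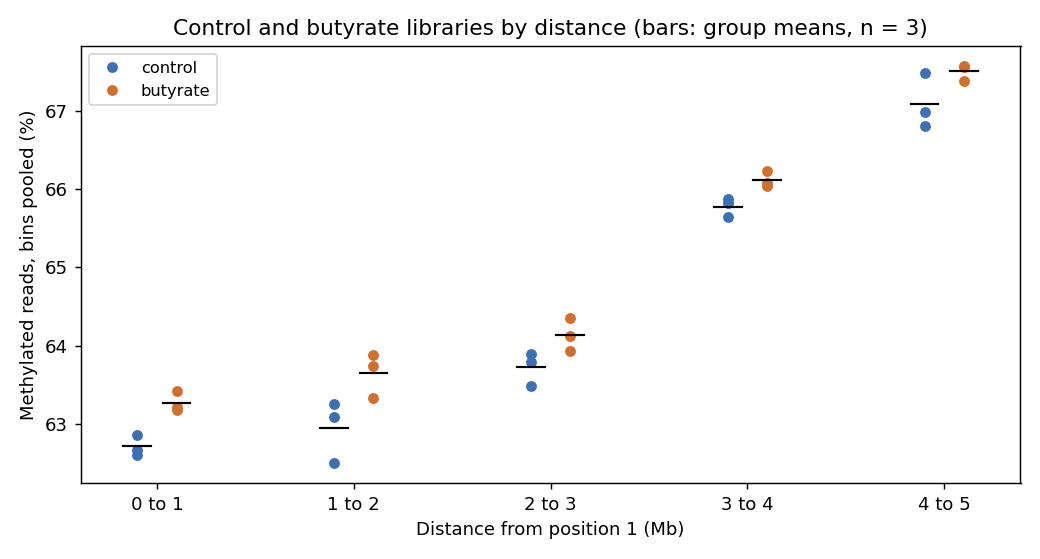
Pooled level of the member bins in percent of methylated reads, per Mb of distance from position 1, for the 3 control and 3 butyrate libraries (dots) with group means (bars). Levels rise with distance in both groups, and the butyrate libraries lie above the controls in the first 4 Mb, whereas the groups overlap from 4 to 5 Mb.

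No single member bin passed the test for a change with butyrate. By limma with eBayes on log2 ratios of methylated to unmethylated reads and Benjamini-Hochberg adjustment over all 27035 bins, 0 of 1449 members had an adjusted p under 0.05, and 0% of all bins did. The quasi-binomial F test also called 0 members, and its smallest adjusted p over all bins was 0.386. At an unadjusted p under 0.05, 57 members (3.93%) were higher in butyrate, against 3.89% of all bins, and 15 (1.04%) were lower, against 1.69% of all bins. The groups did not overlap in 126 members that were higher (8.70%, against 7.83% of all bins) and in 43 that were lower (2.97%, against 3.33%). In total, 868 members (59.9%) were higher in butyrate, against 59.7% of all bins, and the median log2 difference was 0.03 in the members and 0.04 over all bins. These shares were close to the background.

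The members with the smallest p are given with their values. The bin at 4800001 to 4900000 on chromosome 5 had 40.2%, 46.8% and 41.6% in the controls and 63.3%, 56.01% and 54.8% in the butyrate libraries, from 324 to 444 reads. The groups did not overlap, and its log2 ratio was higher by 0.88 (SE 0.17) in butyrate. At 4300001 to 4400000 on chromosome 17 the level was 70.5% ± 1.56 in control libraries and 78.7% ± 2.29 after butyrate (SD, n = 3), a log2 difference of 0.63 (SE 0.14). The 2 lowest p for a lower level were both on chromosome 13. At 3200001 to 3300000 the level was 71.0% ± 1.37 in control and 64.4% ± 1.99 in butyrate, and at 4300001 to 4400000 it was 90.3% ± 0.452 and 87.2% ± 1.43 (SD, n = 3). None of the 4 passed the test, with the same adjusted p of 0.882 by limma.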

How the data were processed

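Each of the 6 WGBS libraries had its own file. According to the methods and the submitters' processing notes, the authors trimmed reads with Trim Galore 0.4.1, mapped them to UMD3.1.1 with bowtie2 and extracted CpG calls with Bismark at default settings. Removal of duplicates is not given in the sources used here, and the sources differ on read length and run type. Each deposited file listed read counts, methylated and unmethylated, for every covered CpG cytosine, without header or normalization. The methylated column was recognised from its values, since it held 65.6% to 66.4% of reads per library. Summed over CpG cytosines, the totals were 18793438 to 23842285 counts per library, which is not the number of sequencing reads. Positions were used as given on UMD3.1.1.

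The first 29 chromosome names in order were taken as autosomes 1 to 29. Files were joined by position, and reads were summed in 100-kb bins. Members were bins that start within the first 5 Mb. The interior was over 10 Mb from position 1 and from the last CpG seen. Chromosome 19 had 49 member bins and the other autosomes 50. Density classes were set on 500-bp windows. Differences between regions were tested within libraries by exact sign flips, and treatment by the exact permutation of 3 against 3. Bins were tested with limma 3.58.1 (R 4.3.3) on log2((methylated + 1)/(unmethylated + 1)). Other computations used Python 3.11.15, NumPy 2.4.6, SciPy 1.17.1, pandas 2.3.3 and Matplotlib 3.10.9. Most deeply covered cytosines were those above the 99.9th percentile, 141 reads over 6 libraries. As a check for a library deposited more than once, replicates of a group were compared over the members. No pair agreed within counting error (chi-square over degrees of freedom 2.37 to 2.61). This check takes all counts as independent, which counts from the same sequencing read are not. It shows that no file of a group was a copy of another, but cannot tell whether the libraries were prepared separately. Each library was counted as 1 sample.

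Named bins were the 3 lowest, 3 highest and 3 deepest, and in each direction the 2 of smallest p, and named autosomes were the 3 lowest and 3 highest in pooled difference. Chromosomes 5, 9, 19 and 27 and the low and high runs were chosen after their values were seen. The members, lists and tests were chosen with earlier results of these data known.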

Additional observations from a re-analysis of the deposited data

How the results depend on the processing

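The pooled difference between end and interior (-0.947 points) turned to 1.13 points with at least 5 reads per cytosine and to 0.712 points with cytosines covered in all 6 libraries. Under the same 2 settings the first Mb against the fifth turned to 5.65 and 3.27 points, and the difference at matched density to 1.77 and 1.12 points. These settings keep only the better covered cytosines. No density class turned: with at least 5 reads the differences were -13.1, -11.6, -4.77 and 3.27 points, from the sparsest to the densest class. The pooled and matched values also depend on the share of reads in each class, which was not held fixed across settings. The cause of the turn was not tested beyond this. With the first 10 Mb in place of 5 the pooled difference was -0.0267 points (two-sided exact permutation p = 0.469). With bins unweighted it was -4.51 points, and the first Mb against the fifth -8.60 points. The difference at matched density was then -0.204 points, with the classes still weighted by the interior's reads. With equal weight for each autosome the end differed from the interior by -1.90 points and with the first 2 Mb by -2.23 points. The differences by density class and against the distal end kept their direction under each alternative run.

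With 5 libraries the sign-flip test cannot go below 0.0625, so leaving out a library ended each such call by construction. The values then ran from -0.987 to -0.916 points for end against interior, from -4.33 to -4.24 points for the first Mb against the fifth, from -0.897 to -0.846 points at matched density, from -5.83 to -5.79 points against the distal end and from 0.0720 to 0.0771 for the log2 ratio of depth. By class they ran from -9.65 to -9.58, from -5.32 to -5.25, from -1.82 to -1.76 and from 8.20 to 8.34 points. The butyrate difference in the end ran from 0.387 to 0.559 points, and its excess over the interior from -0.187 to -0.0585 points; without control replicate 3 the groups of the latter did not overlap (-0.187 points), nor did they with the first 10 Mb (-0.135 points).

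A pairing of the libraries by equal replicate numbers was not seen. Deviations from the group means over all bins correlated by 0.000594, 0.00824 and 0.00664 within equal numbers, and not every library correlated best with its own number. All these correlations were small, so the check cannot decide whether libraries of equal number shared a preparation. With the replicate block the butyrate difference was 0.496 points and its excess over the interior -0.128 points (two-sided exact permutation p = 0.25 for both, the smallest 3 pairs allow). By limma with the block 0 members were called, and the smallest adjusted p over all bins was 0.887. By limma with lane in the model 0 members were called, and the smallest adjusted p over all bins was 0.993. With centring on the median bin, which by construction brings the balance over all bins close to even, 50.4% of members and 51.5% of all bins were higher in butyrate, in place of 59.9% and 59.7%. In bins of 1 Mb, limma called 0 of 145 in the end, and the smallest adjusted p over all such bins was 0.0697. Of these 145 bins 69.0% were higher in butyrate, against 71.3% of all bins of 1 Mb. The settings without the first 100 kb, chromosomes 14 and 25 or chromosome 19, and all those for density classes and single autosomes, were chosen after seeing the data.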
